A study of Mus musculus with 45 samples.

Results

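The collagen genes were all genes whose symbol is Col, a number, the letter a and a number, except *Col9a2*, with more than 4 reads in any of the 45 livers sequenced. Of 44 genes with such a symbol, 43 were left without *Col9a2*, and 36 of these were among the 17464 detected genes of the 39179 listed. *Col2a1*, *Col6a4*, *Col9a1*, *Col10a1*, *Col11a1*, *Col19a1* and *Col26a1* had at most 2 reads in any mouse and were not detected. The livers came from female C57BL/6 mice, 5 in each of 9 groups, first gavaged on postnatal day 28. The groups received sesame oil (vehicle), or TCDD at 0.01, 0.03, 0.1 and 0.3 µg/kg or at 1, 3, 10 and 30 µg/kg, once in 4 days over 28 days. TCDD, a dioxin, is a ligand of the aryl hydrocarbon receptor (AhR). The sample labels also call the mice ovariectomized and the gavage daily, neither of which is in the study's methods. Libraries held 11767284 to 56509899 reads on genes (median 17225047), and values below are CPM, counts scaled by library size with TMM, unless stated. Bulk liver RNA cannot tell fewer cells of a type from less RNA per cell.

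Collagens are extracellular proteins whose chains wind into a triple helix. Collagens I, III and V form the fibres that build up in hepatic fibrosis, collagen IV forms the sheet of basement membranes, and collagen VI forms beaded filaments around cells. Fibril-associated collagens such as XIV bind the surface of fibres, multiplexins such as XVIII carry an anti-angiogenic fragment (endostatin), and transmembrane collagens stay attached to cells. In liver, stellate cells and portal fibroblasts are known sources of fibrillar collagen, while hepatocytes express *Col18a1*.

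In vehicle livers *Col18a1* dominated the family. Per kb of exon it stood at 110.9 ± 17.6 CPM per kb (SD, n = 5), ahead of *Col14a1* at 8.17 ± 1.15, *Col3a1* at 6.28 ± 1.85, *Col27a1* at 2.98 ± 1.33, *Col4a1* at 2.97 ± 0.68 and *Col1a2* at 2.88 ± 0.58 CPM per kb. *Col27a1*, *Col4a1* and *Col1a2* did not differ beyond their SDs. Reads on *Col18a1* made up 76.2% ± 4.3 (SD, n = 5) of all reads on the 36 collagen genes in vehicle mice and 46.8% ± 7.0 at 30 µg/kg, with mice at 71.1% to 81.1% and 41.1% to 58.9%. The family as a whole took 0.0937% ± 0.0097 of reads on genes in vehicle mice and 0.107% ± 0.013 at 30 µg/kg.

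Collagen genes were called at the higher doses, most of them upwards. At 30 µg/kg, 17 of 36 were higher than in vehicle mice (edgeR quasi-likelihood test, Benjamini-Hochberg adjusted p under 0.05), against 15.5% of all 17464 tested genes. A further 4 collagen genes, *Col18a1*, *Col20a1*, *Col25a1* and *Col27a1*, were lower, against 14.1% of all genes. With a fold change of at least 2 as well, 15 were higher (8.03% of all genes) and 3 lower (3.42%). Without normalization the counts were 19 and 3, with 80.34% of all called genes higher against 52.25% with TMM. The median log2 fold change of all genes without normalization was 0.23. With TMM the median log2 fold change at 30 µg/kg was 0.78 over the 36 collagen genes and 0.02 over all genes. Every mouse at 30 µg/kg exceeded every vehicle mouse for 11 collagen genes (10.3% of all genes), and every one was below for 3 (9.57% of all genes).

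Fewer collagen genes were called at the lower doses. At 10 µg/kg, 13 were higher (8.47% of all genes) and 4 lower (7.47%). The count of 13 became 8 without vehicle mouse 4 and 7 without mouse 5 at 10 µg/kg. At 3 µg/kg, *Col1a2*, *Col4a3*, *Col4a4* and *Col14a1* were higher (4.34% of all genes), and *Col18a1* and *Col20a1* were lower (3.2%). At 1 µg/kg, *Col4a3*, *Col4a4* and *Col14a1* were higher (1.24% of all genes) and 0 of 36 were lower (0.515%). In edgeR 2 were lower at an unadjusted p under 0.05, and DESeq2 called 0 lower at an adjusted p under 0.05. None was called by edgeR at 0.3 µg/kg (0.464% of all genes), 0.1 µg/kg (0.0229%), 0.03 µg/kg (0.0573%) or 0.01 µg/kg (0%). At those 4 doses 6, 1, 3 and 2 of the 36 had an unadjusted p under 0.05 in edgeR, and DESeq2 called 0 at each. In the test of any difference over the 9 groups, 22 of 36 were called, against 28.8% of all genes. *Col13a1*, a transmembrane collagen, was the gene called there but at no single dose.

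**Figure D1:**
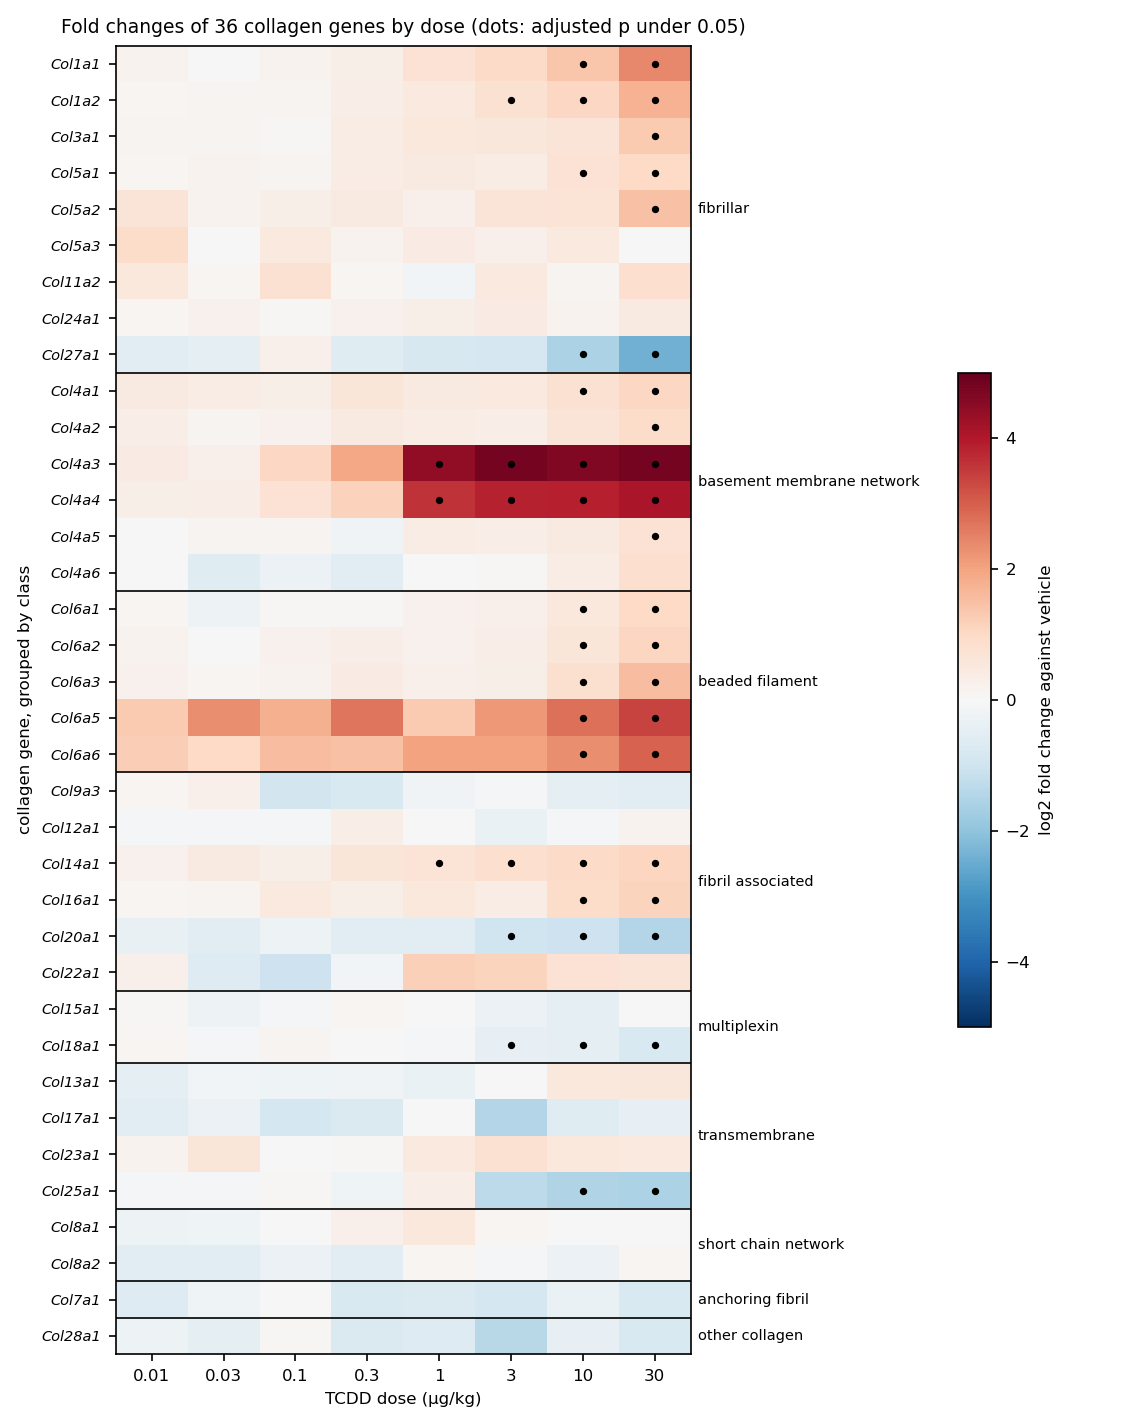
Log2 fold change of each of the 36 collagen genes (rows, by class) at each TCDD dose in µg/kg (columns) against vehicle, 5 mice per group. Colour gives the log2 fold change and dots mark an adjusted p under 0.05 (edgeR). Dots begin at 1 µg/kg, with *Col4a3*, *Col4a4* and *Col14a1*, and number 21 at 30 µg/kg.

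*Col4a3* and *Col4a4* encode basement membrane chains best known from the kidney glomerulus, where they assemble with the *Col4a5* chain. They lie head to head on chromosome 1 of GRCm38, *Col4a4* from 82448423 to 82586849 on the minus strand and *Col4a3* from 82586921 to 82722059 on the plus strand. Only 71 bases lie between their annotated starts. The *Col4a4* promoter window of RefSeq holds both starts and is printed because the pair moved together. It spans chr1:82586800-82587099 (GRCm38.p6) and reads 5′ to 3′ on the minus strand, with the bases between the starts in capitals.
Col4a4: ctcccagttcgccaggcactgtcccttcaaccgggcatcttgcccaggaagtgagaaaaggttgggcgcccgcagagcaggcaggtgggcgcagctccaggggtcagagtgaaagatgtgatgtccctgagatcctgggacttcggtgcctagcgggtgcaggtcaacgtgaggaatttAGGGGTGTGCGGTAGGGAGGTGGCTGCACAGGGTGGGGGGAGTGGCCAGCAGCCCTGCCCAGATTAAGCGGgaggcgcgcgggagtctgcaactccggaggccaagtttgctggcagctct
No copy of GCGTG, the core of the dioxin response element to which AhR binds, was found in it on either strand. The window is set on the *Col4a4* start, and no window was found for *Col4a3*. It therefore covers only part of the sequence before the *Col4a3* start, and bases outside it were not searched.

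*Col4a3* and *Col4a4* had the largest log2 fold changes of the 36 collagen genes at 30 µg/kg, and most of the increase was present at 1 µg/kg. *Col4a3* was at 0.708, 3.75, 1.36, 2.23 and 1.57 CPM in the vehicle mice. At 0.3 µg/kg the mice had 0.706, 3.80, 8.38, 11.8 and 12.2 CPM, and at 1 µg/kg 45.9, 10.1, 51.1, 48.5 and 56.7 CPM. The groups at 0.3 µg/kg and vehicle overlapped, whereas every mouse at 1 µg/kg exceeded every vehicle mouse. At 30 µg/kg *Col4a3* was at 41.9, 57.7, 49.9, 65.1 and 53.7 CPM, from 670 to 1411 reads. By edgeR the log2 fold change was 4.45 (SE 0.56, adjusted p = 5.45e-07) at 1 µg/kg, 4.79 and 4.64 at the next doses, and 4.795 (SE 0.56, adjusted p = 7.93e-09) at 30 µg/kg. A fold of 27.8 was thus reached at the highest dose and one of 21.9 at 1 µg/kg.

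*Col4a4* rose at the same doses. Vehicle mice had 0.354, 0.509, 0.308, 0.186 and 0.253 CPM, from 3 to 8 reads. The mice at 1 µg/kg had 4.04, 1.26, 4.64, 4.62 and 5.46 CPM, and those at 30 µg/kg 4.19, 5.84, 6.01, 5.91 and 5.69 CPM. The groups did not overlap with vehicle at either dose, and mouse 2 at 1 µg/kg was the lowest of its group for both genes. The log2 fold change was 3.60 (SE 0.46, adjusted p = 7.22e-07) at 1 µg/kg and 4.09 (SE 0.45, adjusted p = 1.82e-09) at 30 µg/kg.

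The step between 0.3 and 1 µg/kg was tested directly, a contrast added after the values were seen. *Col4a3* was higher at 1 than at 0.3 µg/kg by a log2 fold change of 2.51 (SE 0.49, adjusted p = 0.00826, edgeR with Benjamini-Hochberg adjustment) and *Col4a4* by 2.47 (SE 0.40, adjusted p = 0.000801). They were the only collagen genes called of 36, where 0.115% of all genes were higher and 0% lower. Between 1 and 30 µg/kg, the interval of the log2 difference was -0.56 to 1.25 for *Col4a3* (adjusted p = 0.655) and -0.20 to 1.17 for *Col4a4* (adjusted p = 0.353). In the same contrast, also added after the values were seen, 10 other collagen genes were higher at 30 than at 1 µg/kg (8.62% of all genes) and 4 were lower (8.85%). The log2 change at 1 µg/kg was 92.8% of that at 30 µg/kg for *Col4a3* and 88.1% for *Col4a4*, against 30.5% for *Col1a1*. At 0.3 µg/kg, where none was called, it was 40.5%, 27.7% and 12.5% in that order. The groups at 0.3 and 1 µg/kg overlapped for *Col4a3*. Mouse 2 at 1 µg/kg (10.05 CPM) lay below mice with 11.84 and 12.24 CPM at 0.3 µg/kg.

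**Figure D2:**
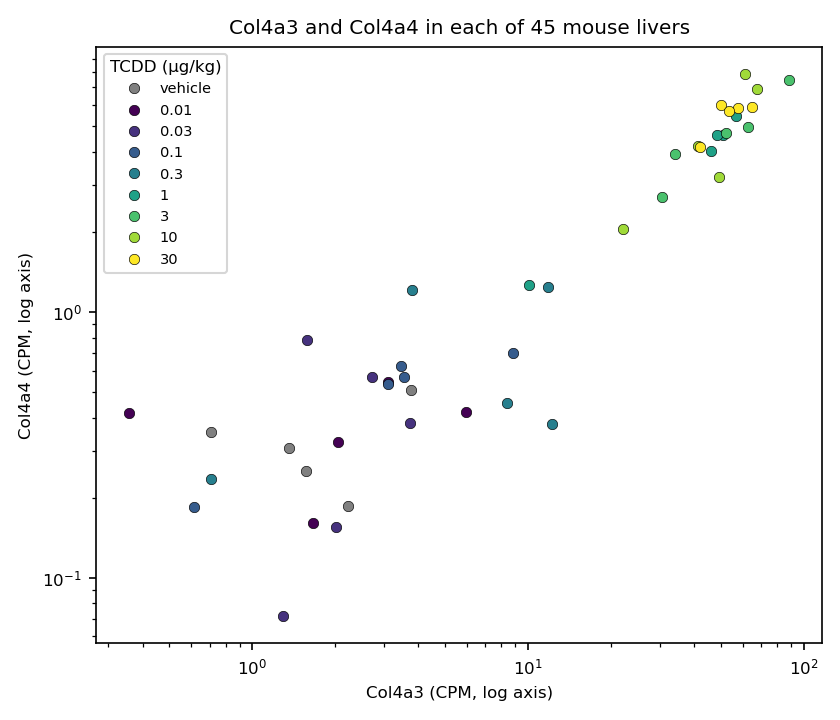
CPM of *Col4a3* (x) and *Col4a4* (y) in each of the 45 livers, both on log axes, coloured by TCDD dose in µg/kg. Mice at 1 µg/kg and above sit at the upper right, mouse 2 at 1 µg/kg (10.1 and 1.26 CPM) the lowest of them.

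Per kb of exon, *Col4a3* exceeded *Col4a4* by a ratio of 6.45 in vehicle mice (2.36 to 14.2) and of 11.5 at 30 µg/kg (9.81 to 13.0), with few *Col4a4* reads behind the first. *Col4a3* rose from place 20 to place 5 among the 36 collagen genes in CPM per kb, at 0.225 ± 0.135 in vehicle mice and 6.27 ± 1.01 at 30 µg/kg. The deviations of both genes from their dose group means correlated over the 45 mice (Pearson's r = 0.558, Spearman's rho = 0.546). This pair was added after its values were seen, and no p is given. Exons of *Col4a3* share 563 bases, 5.6% of their length, with *C430014B12Rik* on the opposite strand, which had at most 51 reads in a mouse. Whether the counting used strand is not given in the sources used here.

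At the highest dose the other basement membrane chains changed less than *Col4a3* and *Col4a4*. None of them was called at a dose as low as the lowest at which that pair was called. *Col4a1* and *Col4a2*, whose chains form the common collagen IV of most basement membranes, also lie head to head, on chromosome 8, with exons that share 22 bases. The RefSeq window of *Col4a2* is shown for comparison with the pair above. It spans chr8:11312555-11312854 (GRCm38.p6, plus strand), and capitals mark its GCGTG copy.
Col4a2: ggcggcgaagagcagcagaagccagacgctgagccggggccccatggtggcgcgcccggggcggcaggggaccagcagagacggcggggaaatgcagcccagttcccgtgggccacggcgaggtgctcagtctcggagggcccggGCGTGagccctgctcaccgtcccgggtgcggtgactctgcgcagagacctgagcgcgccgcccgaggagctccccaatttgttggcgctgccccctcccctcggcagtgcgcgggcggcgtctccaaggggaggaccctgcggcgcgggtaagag
A separate GCGTG copy lies in the *Col4a1* window. Promoter windows of this length (250 bases before to 50 after the start) were found for 29 of the 36 collagen genes, and 9 of the 29 held GCGTG or its reverse CACGC, against 32.4% of all 32851 windows.

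*Col4a1* was at 26.7, 17.9, 18.3, 20.6 and 14.7 CPM in vehicle mice and at 42.7, 55.97, 39.9, 22.95 and 39.2 CPM at 30 µg/kg. Mouse 4 at 30 µg/kg lay inside the vehicle range, and the other four exceeded it. The log2 fold change was 1.03 (SE 0.25, adjusted p = 0.00119). *Col4a2* rose from 14.4 ± 2.7 to 27.1 ± 8.3 CPM (SD, n = 5), a log2 fold change of 0.91 (SE 0.23, adjusted p = 0.00212). *Col4a5*, on chromosome X, rose from 5.36 ± 0.90 to 8.79 ± 2.83 CPM with overlapping groups, a log2 fold change of 0.72 (SE 0.23, adjusted p = 0.0151), and lost its call without mouse 1 or without mouse 2 at 30 µg/kg (0.59 in each). *Col4a6* had at most 12 reads in any mouse and a log2 fold change of 0.84 (interval -0.40 to 2.07). Of the 6 basement membrane genes, 5 were thus higher at 30 µg/kg.

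Of the 9 fibrillar genes, 5 rose at 30 µg/kg, 1 fell and 3 were not called. *Col1a1*, which encodes the main chain of collagen I, was at 8.21, 7.31, 4.99, 5.38 and 4.55 CPM in vehicle mice. At 10 µg/kg it was at 16.0, 12.0, 15.2, 17.1 and 19.5 CPM, and at 30 µg/kg at 28.2, 47.2, 29.4, 12.1 and 44.6 CPM. No mouse at 10 or 30 µg/kg overlapped with vehicle, and mouse 4 at 30 µg/kg was far below the rest of its group. *Col1a1* had a log2 fold change of 1.397 (SE 0.33, adjusted p = 0.00198) at 10 µg/kg and 2.41 (SE 0.33, adjusted p = 2.52e-07) at 30 µg/kg, a fold of 5.31.

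*Col1a2*, the partner chain of *Col1a1*, was at 20.2, 15.8, 15.7, 12.3 and 13.0 CPM in vehicle mice and at 43.1, 69.2, 48.9, 28.2 and 65.3 CPM at 30 µg/kg, without overlap. Its log2 fold change was 0.75 (SE 0.22, adjusted p = 0.028) at 3 µg/kg, the lowest dose at which a fibrillar gene was called, and 1.73 (SE 0.22, adjusted p = 6.68e-08) at 30 µg/kg. *Col3a1*, the collagen III chain, rose from 34.9 ± 10.3 to 86.6 ± 28.1 CPM (log2 fold change 1.31, SE 0.24, adjusted p = 3.12e-05). Mouse 4 at 30 µg/kg (43.8 CPM) lay below vehicle mouse 1 (52.6 CPM). *Col5a1* and *Col5a2*, chains of the collagen V that starts fibres, rose by 1.01 (SE 0.21) and 1.48 (SE 0.25) on the log2 scale, with adjusted p of 0.000244 and 1.55e-05 and no overlap. All of *Col1a1*, *Col1a2*, *Col3a1* and *Col5a2* were also higher at 30 than at 1 µg/kg (adjusted p from 3.92e-05 to 0.0127), and *Col5a1* was not called there (0.0516).

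*Col27a1*, a fibrillar collagen known from cartilage, went the other way. Vehicle mice had 17.8, 15.4, 31.6, 13.2 and 35.6 CPM, and mice at 30 µg/kg 3.16, 4.41, 4.03, 5.29 and 4.73 CPM. The groups did not overlap. *Col27a1* had a log2 fold change of -1.58 (SE 0.39, adjusted p = 0.00359) at 10 µg/kg and -2.40 (SE 0.41, adjusted p = 1.43e-05) at 30 µg/kg, a fold of 5.29 lower. In CPM per kb *Col27a1* went from place 4 of the 36 to place 19. *Col5a3* stood at 8.83 ± 2.38 CPM in vehicle mice and 8.71 ± 1.19 at 30 µg/kg (log2 fold change -0.02, interval -0.77 to 0.72), and 1 mouse at 0.01 µg/kg had 37.9 CPM. *Col11a2* (0.84, interval 0.06 to 1.62) and *Col24a1* (0.44, interval -0.42 to 1.3) had adjusted p of 0.0973 and 0.477, from at most 57 and 25 reads in a mouse.

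All 5 detected collagen VI genes were higher at 30 µg/kg, and all 5 also at 10 µg/kg. *Col6a3*, the longest of the common chains, was at 7.995, 7.44, 6.53, 5.26 and 4.801 CPM in vehicle mice and at 16.4, 17.0, 20.0, 16.8 and 23.3 CPM at 30 µg/kg. The groups did not overlap, and mouse 4 at 30 µg/kg was within the range of the others. For *Col6a3* the log2 fold change was 0.79 (SE 0.20, adjusted p = 0.00476) at 10 µg/kg and 1.55 (SE 0.20, adjusted p = 8.03e-08) at 30 µg/kg. *Col6a1* rose from 7.22 ± 0.79 to 14.5 ± 2.6 CPM without overlap (1.00, SE 0.17, adjusted p = 1.32e-05), and *Col6a2* from 3.63 ± 1.10 to 7.73 ± 1.69 CPM with overlap (1.09, SE 0.22, adjusted p = 0.000119). *Col6a5* and *Col6a6* were called from few reads, 0 to 1 and 0 to 2 per vehicle mouse against 2 to 21 and 1 to 13 at 30 µg/kg, so no fold is given. They are neighbouring paralogs, and reads that fit more than 1 place were not counted.

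Among the 6 fibril-associated genes, *Col14a1* and *Col16a1* rose and *Col20a1* fell. *Col14a1*, which binds collagen fibres, was at 58.9, 44.4, 62.2, 49.5 and 49.1 CPM in vehicle mice and at 69.2, 90.3, 75.1, 90.3 and 94.8 CPM at 1 µg/kg. Mice at 30 µg/kg had 101.8, 129.6, 126, 89.0 and 108.5 CPM. All treated mice at 1 µg/kg and at 30 µg/kg were above all vehicle mice. The log2 fold change was 0.67 (SE 0.17, adjusted p = 0.0282) at 1 µg/kg, 0.85 and 0.97 at the next doses and 1.07 (SE 0.18, adjusted p = 6.23e-06) at 30 µg/kg. *Col16a1* rose from 1.96 ± 0.49 to 4.18 ± 0.38 CPM without overlap (1.10, SE 0.21, adjusted p = 7.2e-05).

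*Col20a1* was at 2.62, 2.10, 2.22, 2.60 and 3.59 CPM in vehicle mice and at 0.766, 0.343, 0.919, 1.62 and 1.12 CPM at 30 µg/kg. The groups did not overlap. Its log2 fold change was -0.998 (SE 0.26, adjusted p = 0.0131) at 3 µg/kg and -1.47 (SE 0.28, adjusted p = 5.86e-05) at 30 µg/kg. Its exons share 79 bases with *BX649560.1* on the same strand, which had up to 124 reads in a mouse. *Col12a1* (0.16, interval -0.32 to 0.64), *Col9a3* (-0.58, interval -1.56 to 0.40) and *Col22a1* (0.63, interval -1.76 to 3.01) were not called at 30 µg/kg.

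The most abundant collagen transcript fell. *Col18a1* was at 696, 862, 716, 888 and 603 CPM in vehicle mice, 647, 592, 476, 535 and 546 CPM at 3 µg/kg and 411, 447, 405, 526 and 461 CPM at 30 µg/kg. The group at 3 µg/kg overlapped with vehicle by mouse 1, and that at 30 µg/kg did not overlap. For *Col18a1* the log2 fold change was -0.43 (SE 0.12, adjusted p = 0.024) at 3 µg/kg and -0.74 (SE 0.12, adjusted p = 8.9e-06) at 30 µg/kg, a fold of 1.67 lower. Its values rest on at least 5749 reads per mouse. *Col15a1*, the other multiplexin, was at 7.09 ± 2.16 CPM in vehicle mice and 6.98 ± 2.43 at 30 µg/kg (-0.02, interval -0.70 to 0.65).

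Among the transmembrane collagens, *Col25a1*, first described in brain, fell from 0.426 ± 0.301 to 0.129 ± 0.117 CPM with overlap (-1.57, SE 0.56, adjusted p = 0.029), from 3 to 15 and 0 to 6 reads. That call was lost under 6 of 17 alternatives, among them leaving out vehicle mouse 3 (-1.08). *Col13a1* was at 3.41 ± 0.32 CPM in vehicle mice, 2.68 ± 0.63 at 1 µg/kg and 4.98 ± 1.54 at 30 µg/kg, and was higher at 30 than at 1 µg/kg (0.88, SE 0.29, adjusted p = 0.0269). *Col17a1* and *Col23a1* were not called, nor were *Col7a1* of anchoring fibrils, *Col8a1* and *Col8a2* of short chain networks, or *Col28a1*. These 6 had at most 46 reads in a mouse, and their log2 fold changes at 30 µg/kg lay between -0.77 and 0.50.

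**Figure D3:**
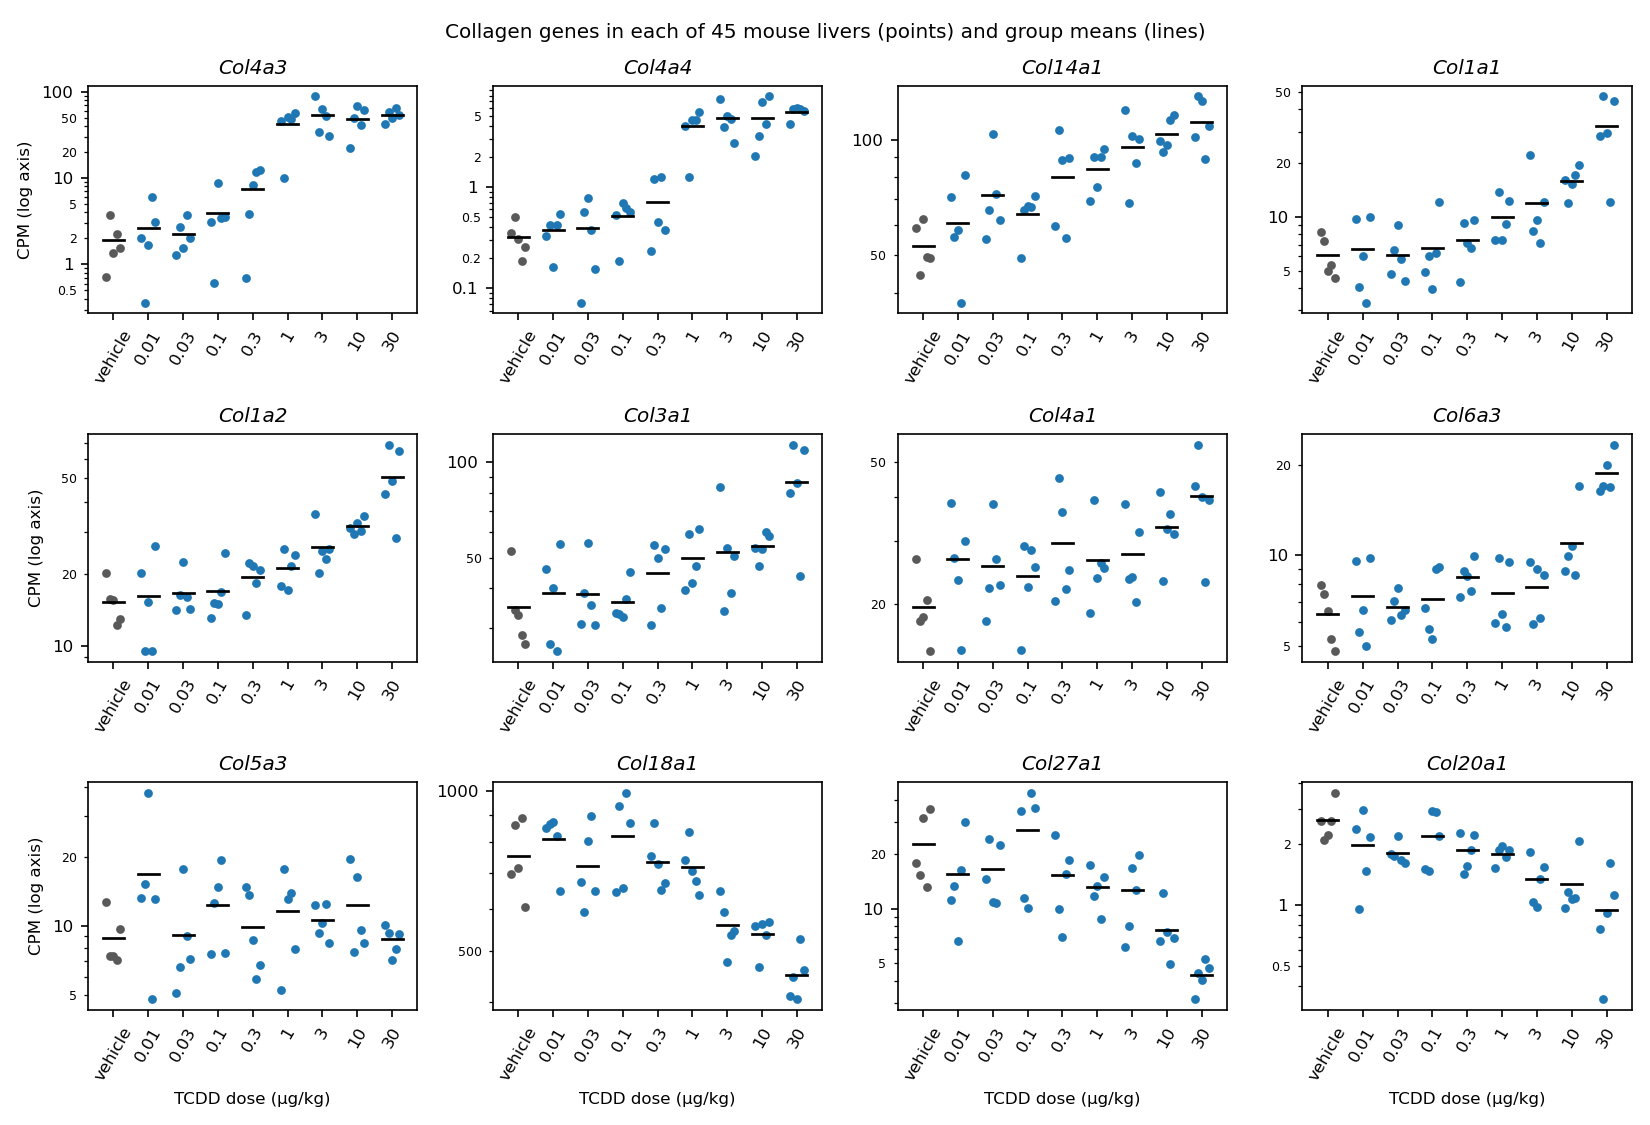
CPM (log axis) of 12 collagen genes in every mouse (points, 5 per group) by TCDD dose in µg/kg, with group means as lines and vehicle mice in grey. *Col4a3* and *Col4a4* step up by 1 µg/kg, *Col1a1*, *Col1a2*, *Col3a1* and *Col6a3* are highest at 30 µg/kg, *Col5a3* shows no trend, and *Col18a1*, *Col27a1* and *Col20a1* go down.

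Between 10 and 30 µg/kg, 0 of 36 collagen genes were called by edgeR (0.613% of all genes), with 8 at an unadjusted p under 0.05 and 1, *Col6a3*, called by DESeq2. The edgeR log2 difference of *Col6a3* was 0.76 (interval 0.37 to 1.15, adjusted p = 0.0522), and that of *Col1a1* was 1.01 (interval 0.39 to 1.64, adjusted p = 0.159). The rise from the second highest to the highest dose was not shown for any one chain by the main test.

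Mouse by mouse, 5 of the 6 tested pairs of chains varied together, among them *Col1a1* of fibres with *Col4a1* of basement membranes. Deviations from the dose group means over the 45 mice, in log2 CPM, correlated for *Col1a1* with *Col1a2* at r = 0.924 and rho = 0.905 and for *Col1a1* with *Col3a1* at r = 0.924 and rho = 0.923. For *Col4a1* and *Col4a2* r was 0.946 (rho = 0.94), for *Col6a1* and *Col6a2* 0.681 (rho = 0.702), and for *Col1a1* with *Col4a1* 0.745 (rho = 0.737). These 5 pairs had permutation p of 1e-05 to 2e-05 within dose groups, two-sided (adjusted 1.5e-05 to 2.4e-05 over 6 pairs, 1e-05 being the smallest the permutations can give). Each had r above 0 in all 9 groups. *Col1a1* with *Col18a1* gave r = 0.148 (permutation p = 0.382, adjusted 0.382) and rho = 0.192 (p = 0.249, adjusted 0.249). Without the 2 mice farthest from the median of the first gene, r was 0.906, 0.889, 0.941, 0.683 and 0.682 for the 5 pairs in that order and 0.217 for the sixth. Both genes of a pair come from the same library, so shared depth or tissue makeup enters these values, and their part was not tested.

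Ratios between partner chains are described here for 4 pairs, with that of *Col4a3* to *Col4a4* given above. Among these 4, *Col1a1* to *Col1a2* and *Col6a3* to *Col6a1* differed most between vehicle and 30 µg/kg. Reads per kb of *Col1a1* were 0.353 of those of *Col1a2* in vehicle mice (0.288 to 0.418) and 0.542 at 30 µg/kg (0.387 to 0.615). The ratio of *Col6a3* to *Col6a1* was 0.331 (0.251 to 0.409) and 0.490 (0.398 to 0.601). That of *Col4a1* to *Col4a2* was 1.32 (1.20 to 1.41) and 1.46 (1.299 to 1.59), and that of *Col6a1* to *Col6a2* was 3.00 (2.29 to 3.70) and 2.77 (2.65 to 3.03). All 4 pairs of groups overlapped and no test was run on them. By class, the fibrillar genes held 11.1% ± 2.7 (SD, n = 5) of the summed collagen CPM per kb in vehicle mice and 23.8% ± 5.6 at 30 µg/kg. Basement membrane genes went from 4.25% ± 0.57 to 12.4% ± 1.2, with 8.41% ± 1.21 at 1 µg/kg, and the multiplexins from 75.3% ± 4.5 to 45.7% ± 7.3.

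**Figure D4:**
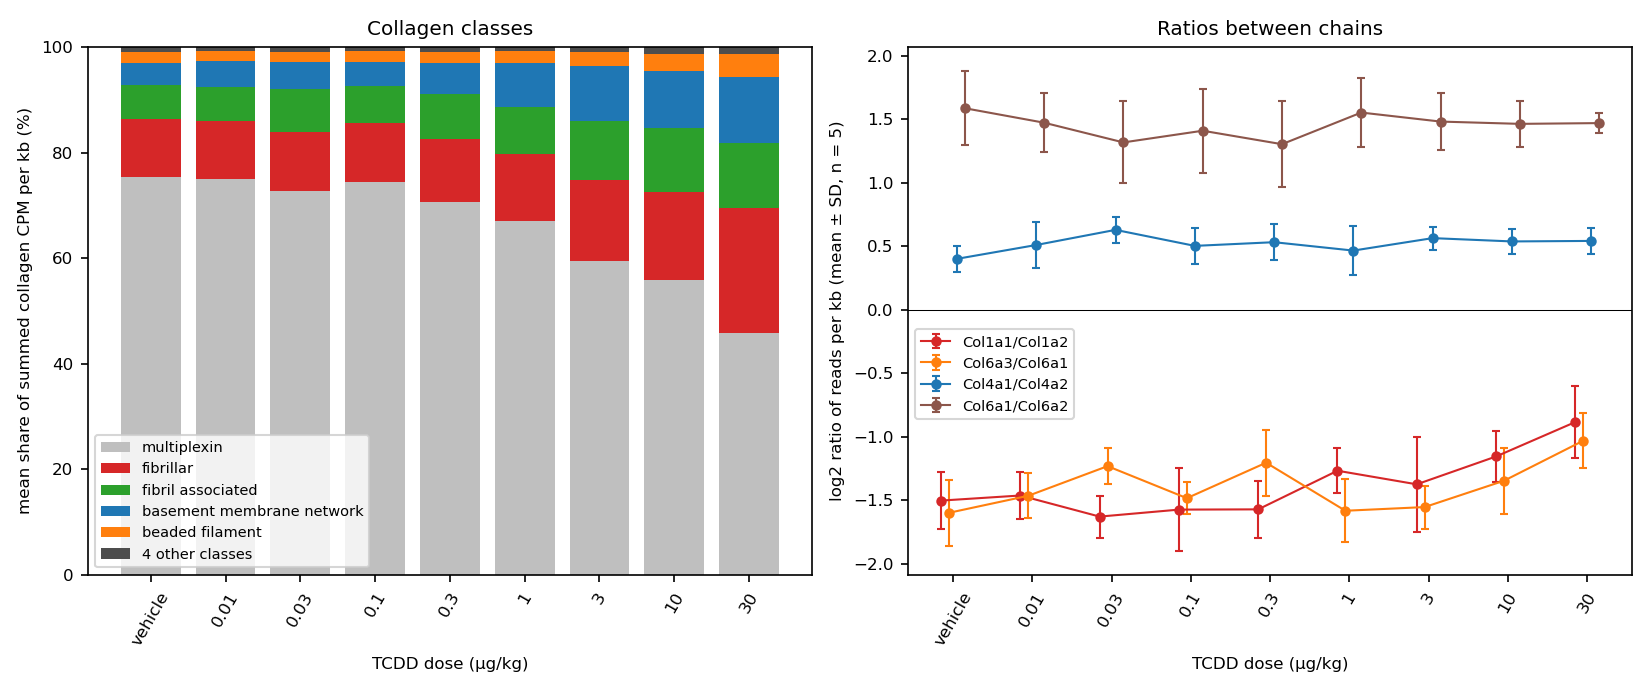
Left, mean share of each collagen class in the summed CPM per kb of exon (%) by TCDD dose in µg/kg. Right, log2 ratio of reads per kb between chains (mean ± SD, n = 5). The multiplexin share is 75.3% in vehicle mice and 45.7% at 30 µg/kg, and the ratios of *Col1a1* to *Col1a2* and *Col6a3* to *Col6a1* are highest at 30 µg/kg.

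Of 54 tested genes that modify, cleave, break down, sense or induce collagen, 30 were higher and 4 lower at 30 µg/kg (15.5% and 14.1% of all genes). At 1 µg/kg *Plod1* alone was called, at a log2 fold change of 0.54 (adjusted p = 0.00147). *Plod1*, a lysyl hydroxylase, rose from 36.6 ± 2.7 to 60.6 ± 2.8 CPM at 30 µg/kg without overlap (0.73, SE 0.11, adjusted p = 6.3e-07). Of 17 genes that modify and fold chains, 7 rose, among them the prolyl hydroxylase subunit *P4ha2* (0.92, adjusted p = 0.00317) and the collagen chaperone *Serpinh1* (0.71, adjusted p = 0.00959). The prolyl 3-hydroxylase *P3h1* (-0.62, adjusted p = 0.00186), the isomerase *Ppib* (-0.37, adjusted p = 0.00343) and the galactosyltransferase *Colgalt2* (-1.01, adjusted p = 0.0225) fell. The median log2 fold change of these 17 was 0.20, against 0.02 over all genes.

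Of 11 genes for cleaving and crosslinking procollagen, 5 rose and 1 fell (median 0.52). The crosslinking enzyme *Lox* went from 0.495 ± 0.449 to 2.07 ± 0.91 CPM (2.10, SE 0.52, adjusted p = 0.00163). *Loxl3*, of the same enzyme family, rose by 0.96 (adjusted p = 0.000867) and the N-propeptidase *Adamts14* by 1.19 (adjusted p = 5.42e-05). *Bmp1*, the C-propeptidase, fell from 79.6 ± 9.7 to 48.6 ± 8.5 CPM without overlap (-0.71, SE 0.14, adjusted p = 7.74e-05).

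Of 7 breakdown genes, 6 rose and 0 fell (median 1.45, with *Mmp9* not called at 0.72, adjusted p = 0.438). The collagenase *Mmp13* was at 0 to 0.495 CPM in vehicle mice and 2.67 to 10.9 CPM at 30 µg/kg (4.63, SE 0.46, adjusted p = 1.34e-10). *Mmp8*, another collagenase, was at 0 to 0.101 and 0.406 to 2.003 CPM (adjusted p = 0.000109), and *Mrc2*, a receptor that takes up collagen, rose by 1.45 (adjusted p = 0.000234). All 3 detected inhibitors rose (median 0.98), *Timp3* from 38.8 ± 6.6 to 76.5 ± 5.3 CPM (0.98, SE 0.20, adjusted p = 0.000217), *Timp2* by 0.55 (adjusted p = 0.006) and *Timp1* by 2.26 (adjusted p = 0.00974), from at most 0.744 CPM in a mouse.

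Of 8 collagen receptor genes, 4 rose (median 0.59): *Ddr2* (0.83, adjusted p = 8.72e-05), *Itga1* (0.56, adjusted p = 0.000313), *Lair1* (1.33, adjusted p = 0.00156) and *Itga2*, which had 0.240 CPM at most. The shared integrin subunit *Itgb1* was at 198 ± 24.7 and 186 ± 7.69 CPM (-0.09, adjusted p = 0.378). Of 8 growth factors known to induce collagen, 5 rose (median 0.83). *Tgfb2* went from 0.186 to 0.778 CPM in vehicle mice to 4.42 to 10.6 CPM at 30 µg/kg (3.95, SE 0.33, adjusted p = 1.13e-12). *Pdgfb* rose by 1.46 (adjusted p = 0.0004) and *Pdgfd* by 0.65 (adjusted p = 0.0102).

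**Figure D5:**
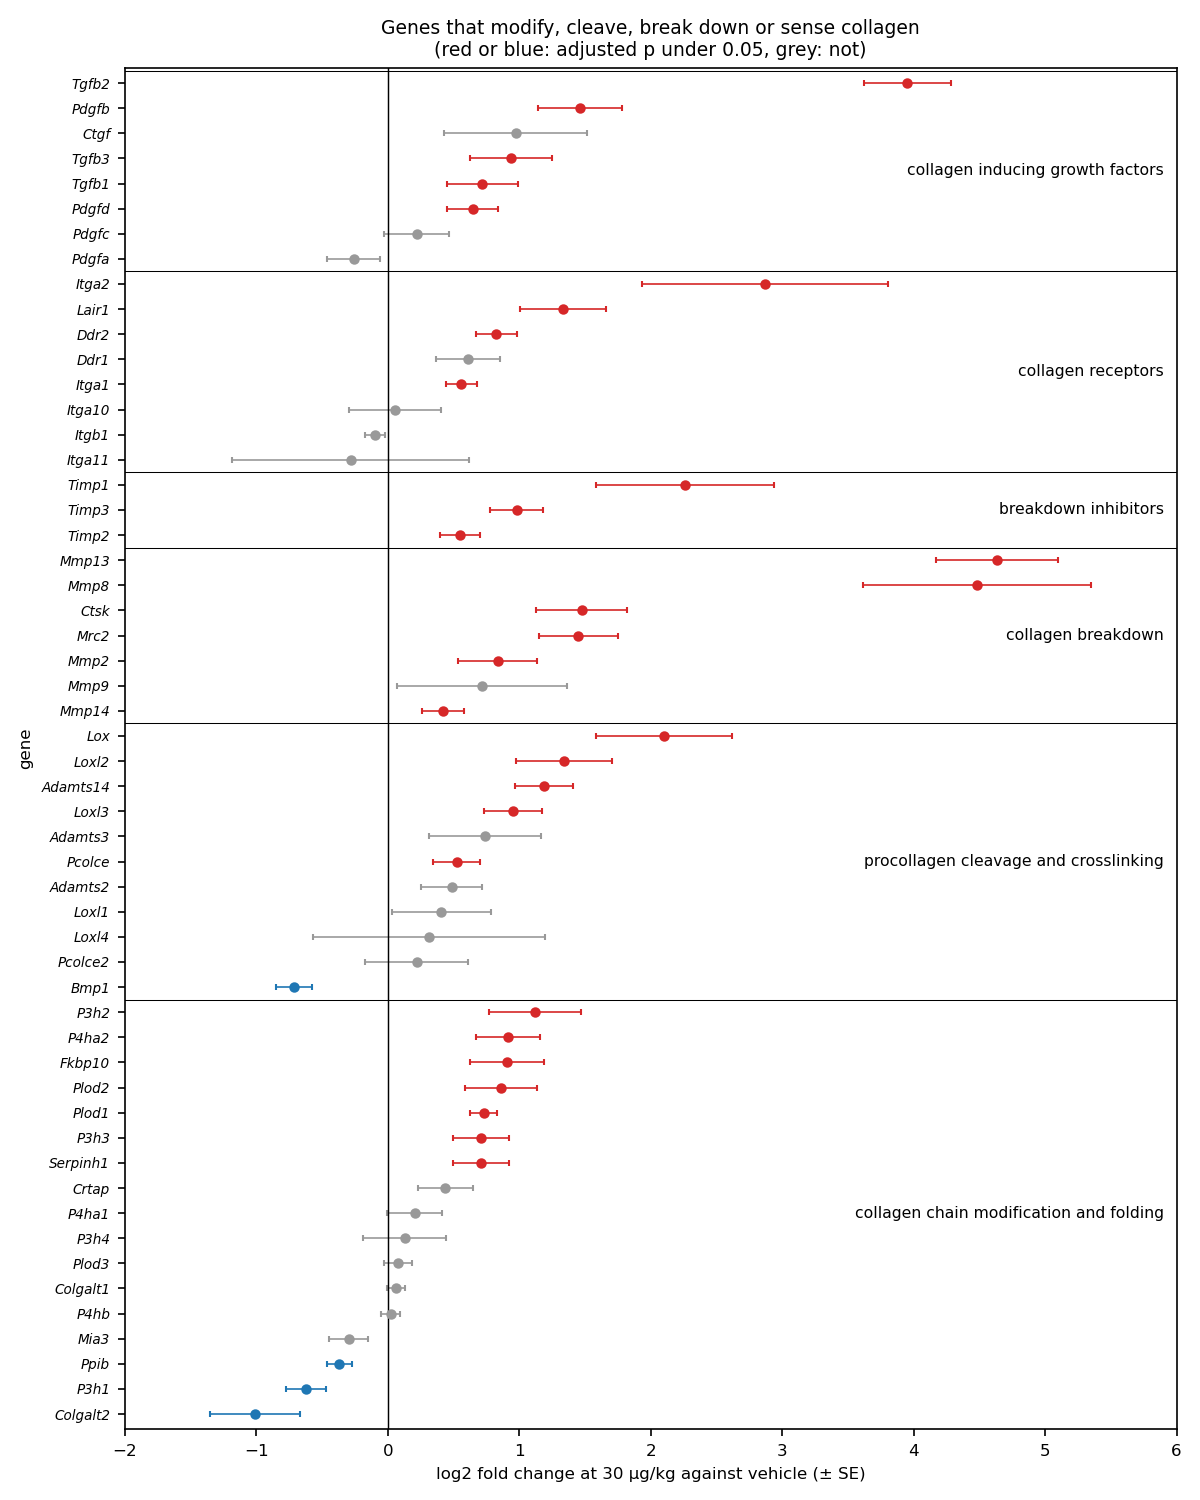
Log2 fold change at 30 µg/kg against vehicle (± SE, 5 mice per group) for 54 genes in 6 lists. Red points are higher and blue points lower at an adjusted p under 0.05 (edgeR), grey points are not called, and 30 are red and 4 blue.

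Markers of liver cell types moved unevenly with these changes. Their counts at 30 µg/kg stand against 15.5% of all genes higher and 14.1% lower. Of 7 stellate cell markers 1, *Reln*, rose at 30 µg/kg (1.71, adjusted p = 2.37e-12), and their summed level went from 195 to 275 CPM in vehicle mice to 352 to 436 CPM, most of the difference being *Reln* (54.5 ± 5.4 and 178 ± 28.1 CPM). The other 6 were not called, with log2 fold changes from 0.17 (*Rgs5*) to 0.50 (*Lrat*). Of these, *Lrat* had an adjusted p of 0.151 and *Des* (0.18) one of 0.509. Of 6 myofibroblast markers 1, *Tagln*, rose (0.85, adjusted p = 0.00113) and 1, *Tpm2*, fell (-2.26, adjusted p = 3.85e-08). *Acta2* was not called (0.72, SE 0.35, adjusted p = 0.126), with means of 1.44 CPM in vehicle mice and 2.35 CPM at 30 µg/kg. The sum was 27.2 to 38.8 and 21.6 to 36.97 CPM. That sum mixes changes in both directions, with *Tpm2* at means of 7.88 and 1.63 CPM and *Tagln* at 4.73 and 8.49 CPM. *Postn*, not called (adjusted p = 0.559), had means of 15.4 and 13.8 CPM. Of 5 portal fibroblast markers 3 rose, the sum going from 4.40 to 6.51 CPM to 21.8 to 33.1 CPM, most of it *Entpd2* (1.21 ± 0.13 and 20.5 ± 3.2 CPM). Of 6 endothelial markers 4 rose, *Clec4g*, *Kdr*, *Pecam1* and *Cdh5*, with sums of 128 to 168.5 and 151 to 248.5 CPM. *Stab2* (0.23, adjusted p = 0.293) and *Lyve1* (-0.20, adjusted p = 0.637) were not called. Of 5 macrophage markers 1, *Cd68*, rose (1.08, adjusted p = 0.0178), with sums of 133 to 212 and 110.1 to 333 CPM, and mouse 5 at 0.01 µg/kg had the highest sum of all, 742 CPM.

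Of 5 hepatocyte markers 3 fell at 30 µg/kg and *Alb* was not called (-0.08, adjusted p = 0.65), with sums that overlapped. The 5 cholangiocyte and 4 mesothelium markers had adjusted p of 0.24 or more at 30 µg/kg, with sums of 3.90 to 5.81 and 4.56 to 5.29 CPM for the former and 1.98 to 5.28 and 2.95 to 5.59 CPM for the latter, and the 4 pancreatic markers were at or near 0, at most 0.141 CPM in sum. At 1 µg/kg, where *Col4a3* and *Col4a4* were already high, *Entpd2* was the one marker that rose (1.24% of all genes). *Ttr* of hepatocytes and *Tpm2* fell (0.515% of all genes), and the stellate sum (211 to 311 CPM) overlapped with vehicle. The part of these marker levels in the collagen values was not tested.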

How the data were processed

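Liver RNA of 45 mice was sequenced as single 50-base reads. Per the submitters' processing notes and the study's methods, the authors aligned reads to GRCm38 with TopHat 1.4.1 and counted uniquely aligned reads on genes with HTSeq 0.6.1. The deposited values are raw counts per gene, without normalization. Here all 45 libraries were fitted together by the quasi-likelihood test of edgeR 4.0.16 (R 4.3.3), with a coefficient for each group and TMM scaling and Benjamini-Hochberg adjustment within each dose. Fold changes are fitted and intervals are 95%. Genes needed more than 4 reads in any mouse. DESeq2 1.42.0, other scalings (one of them none) and filters, and each mouse left out in turn were alternatives. The methods state no edgeR fit, and the authors' empirical Bayes analysis was not repeated. Libraries held 11767284 to 56509899 reads on genes, and 10.7% to 18.42% of uniquely aligned reads lay on no gene or on more than 1 and were left out. No libraries held identical counts. Sequencing pools are not given in the labels, so no value was computed within pools. GENCODE M21 gave positions and exon lengths (basic transcripts) and RefSeq the promoters.

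The collagen genes and lists were chosen with earlier results of these data known. Collagen genes called at any dose, or with a mean of 1 CPM or more in vehicle or 30 µg/kg mice, were named with values, 25 in all, and up to 3 list genes per direction by adjusted p. Genes outside this rule were named for completeness after their values were seen. Mouse numbers follow deposition order and pair nothing. On simulated data with 17464 genes at 30 µg/kg, the fit recovered 19 of 50 genes changed by 0.7 on the log2 scale. It recovered 29 of 50 changed by 1, 37 of 50 by 1.5 and 44 of 50 by 2, low genes included, with 4 false calls. Only these genes were changed in the simulation, whereas 5167 genes were called at 30 µg/kg in the data. The simulated rates may therefore not carry over to the data. Correlations used log2(CPM + 0.1) and 100000 permutations. Intervals give the uncertainty of a fitted difference between groups of 5 mice. The spread behind them was estimated from all libraries fitted together, so they rest on these mice alone.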

Additional observations from a re-analysis of the deposited data

Results flagged for a closer look

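Within groups of 5, the highest or lowest mouse stood apart from the others, by a gap over 0.71 of the group's range, in 17 of 189 groups of the 21 collagen genes called at 30 µg/kg. For independent groups of normally distributed values, about 1 in 20 would be flagged. These genes varied together between mice and some had few reads, so the 17 cannot be set against that rate. *Col4a3* had 10.05 CPM in mouse 2 at 1 µg/kg, where the next lowest mouse had 45.9, and *Col4a4* had 4.192 CPM in mouse 1 at 30 µg/kg, where the next had 5.69. Mouse 5 at 10 µg/kg was the highest for *Col6a1* (12.39 CPM), *Col6a3* (16.98 CPM) and *Col20a1* (2.07 CPM), and the nearest mice had 9.86, 10.7 and 1.16 CPM. Single high mice were also *Col1a1* at 12.09 CPM in mouse 5 at 0.1 µg/kg, *Col1a2* at 22.49 CPM and *Col20a1* at 2.201 CPM in mouse 3 at 0.03 µg/kg, *Col3a1* at 52.57 CPM in vehicle mouse 1 and *Col4a5* at 9.051 CPM in mouse 4 at 0.03 µg/kg. Others were *Col5a1* at 14.61 CPM in mouse 1 at 3 µg/kg, *Col6a5* at 0.7426 CPM in mouse 3 at 30 µg/kg and *Col25a1* at 0.8662 CPM in mouse 5 at 0.3 µg/kg. Single low mice were *Col4a5* at 2.51 CPM in mouse 1 at 0.3 µg/kg, *Col5a1* at 5.067 CPM and *Col14a1* at 49.24 CPM in mouse 1 at 0.1 µg/kg and *Col18a1* at 648.2 CPM in mouse 5 at 0.01 µg/kg, the mouse with the highest macrophage markers.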

How the results depend on the processing

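The 13 collagen genes higher at 10 µg/kg ranged from 7 (without mouse 5 at 10 µg/kg) to 16 with single mice left out, and were 8 without vehicle mouse 4. With single mice left out, the 17 higher at 30 µg/kg ranged from 16 to 17 and the 4 lower from 3 to 4. Over the other alternatives the 17 became 15 (filterByExpr filter) to 19 (no normalization) and the 4 became 3 to 4. Of pathway genes, 2 rather than 4 were lower at 30 µg/kg without normalization. Between 10 and 30 µg/kg, 1 collagen gene rather than 0 was called with DESeq2 size factors, without normalization, with the DESeq2 test, with the filterByExpr filter, and without mouse 5 at 0.01 µg/kg, an alternative chosen after seeing the data. The cause of these moves was not tested. The other 158 recomputed counts, correlations and ratios stayed within 1.5 times the reported count, or kept their side of the threshold or moved by less than the spread. Of 423 recomputed values of single collagen genes, 413 kept their side of the threshold, 8 lost the call (*Col25a1* in 6, *Col4a5* in 2) and 2 gained it (*Col13a1*, at 0.78 without normalization and 0.56 with vehicle and 30 µg/kg alone in the fit). No called gene changed direction, while *Col5a3* and *Col15a1*, not called and near 0 (-0.02 each), ranged from -0.09 to 0.19 and from -0.17 to 0.21.

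No paired analysis was possible because the mouse numbers, 1 to 5 in each group, were given here in deposition order and do not link mice of different groups. Genes with few reads, such as *Col6a5*, *Col6a6* and *Col25a1*, limit what 5 mice per group can resolve.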
